A study of Mus musculus with 20 samples.

Results

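Sugar handling in the liver was followed through 8 genes: the glucose transporter gene Slc2a2, the fructose transporter gene Slc2a5, the first enzymes of fructose and galactose use (Khk and Galk1), the last enzyme of glycolysis (Pklr), the sugar-sensing transcription factor gene Mlxipl, and the liver enzymes that build and break down glycogen (Gys2 and Pygl). They are 8 of the 21768 genes in the deposited table. Each was found by its symbol and represented by the transcript with the highest count summed over the 10 libraries used.

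The study compared livers of wild-type mice that drank water with 100 mg/L CdCl2 with livers of unexposed wild-type mice. RNA was sequenced for an m6A assay, in which fragments carrying N6-methyladenosine are pulled down with an antibody and set against the RNA before the pull-down, called the input. Only the 10 input libraries are used here: 3 of CdCl2 livers and 2 of control livers at 9 months, and 3 of CdCl2 livers and 2 of control livers at 3 months. The titles give exposure, time and a replicate number, and the treatment label reads the same for every sample, so the groups rest on the titles. Nothing says that replicates came from separate animals, so p-values measure the spread between these libraries, which may be technical. The age and sex of the mice and the hour of tissue collection are not in the labels used here.

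The liver takes up glucose through the transporter encoded by Slc2a2, in either direction along the gradient, and stores it as glycogen after meals. Fructose and galactose reach the liver by the portal vein and are trapped by phosphorylation, fructose by ketohexokinase (Khk) and galactose by galactokinase (Galk1). When sugar is plentiful, the transcription factor ChREBP, encoded by Mlxipl, binds with its partner Mlx to pairs of E-boxes called carbohydrate response elements and raises the transcription of genes such as Pklr.

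The sequences upstream of these genes show where such elements lie. RefSeq promoter windows (GRCm38.p6, 250 bases before to 50 bases after the annotated start) matched 7 of the 8 genes, in 9 windows. A carbohydrate response element, searched as an E-box pair at its fixed spacing with its variable bases left free, was found in 1 of the 9 windows, the downstream one of Pklr, and in 0.119% of all 32851 windows. The single E-box CACGTG was found in 3 of the 9 windows, of Khk, of Galk1 and of the upstream start of Mlxipl, and in 7.15% of all windows. Both motifs read the same on either strand. These 4 windows are printed because they hold the motif matches among the 8 genes, and capitals mark the match.
Pklr, chr3:89136373-89136672, plus strand: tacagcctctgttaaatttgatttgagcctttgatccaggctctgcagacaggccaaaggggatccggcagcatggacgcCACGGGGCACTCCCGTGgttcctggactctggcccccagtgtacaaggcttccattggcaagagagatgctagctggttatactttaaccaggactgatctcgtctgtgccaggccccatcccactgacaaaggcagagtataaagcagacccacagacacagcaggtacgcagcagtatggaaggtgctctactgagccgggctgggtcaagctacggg
Khk, chr5:30921309-30921608, plus strand: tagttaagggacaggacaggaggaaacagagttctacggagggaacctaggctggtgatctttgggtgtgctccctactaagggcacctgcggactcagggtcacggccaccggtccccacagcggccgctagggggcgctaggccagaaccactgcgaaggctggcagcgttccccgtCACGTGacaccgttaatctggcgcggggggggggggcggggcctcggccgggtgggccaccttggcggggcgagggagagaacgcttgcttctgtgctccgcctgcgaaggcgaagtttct
Galk1, chr11:116012670-116012969, minus strand: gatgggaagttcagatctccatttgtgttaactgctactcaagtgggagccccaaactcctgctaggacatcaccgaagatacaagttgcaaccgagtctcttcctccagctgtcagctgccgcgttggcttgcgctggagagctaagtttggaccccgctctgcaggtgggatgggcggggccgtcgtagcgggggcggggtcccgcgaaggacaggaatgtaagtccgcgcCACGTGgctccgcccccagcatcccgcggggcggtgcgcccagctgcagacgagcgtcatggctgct
Mlxipl, chr5:135089640-135089939, plus strand: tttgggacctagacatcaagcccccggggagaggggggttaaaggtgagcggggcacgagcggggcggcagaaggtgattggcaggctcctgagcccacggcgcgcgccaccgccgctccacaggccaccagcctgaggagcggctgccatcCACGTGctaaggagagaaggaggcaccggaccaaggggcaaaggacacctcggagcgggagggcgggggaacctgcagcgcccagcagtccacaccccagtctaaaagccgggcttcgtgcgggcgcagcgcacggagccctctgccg
The match starts 170 bases before the annotated start in Pklr, 71 in Khk, 17 in Galk1 and 98 in the upstream Mlxipl window. The D-box of the clock-output factors Dbp, Tef and Hlf (TTATGTAA, TTACATAA or TTACGTAA, which covers both strands) was in 0 of the 9 windows and in 1.06% of all. A match describes letters in a window and says nothing about binding in these livers.

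Counts summed over genes, 1 transcript each, were 3958164 to 8912898 per library, and 12730 to 16519 genes had a count. The hepatocyte markers summed to 66820 to 104200 CPM (counts per 1000000 counts of a library, scaled by edgeR's TMM factors), and all 8 of these markers were detected in every library. The 3-month controls stood apart: across 9110 genes the median correlation with the other libraries was 0.848 and 0.855 for them and 0.913 to 0.943 for the other 8 libraries. Their correlation with each other was 0.821. The coefficient of variation between libraries, common to all genes, was 0.909 in 3-month controls and 0.368 to 0.528 in the other groups. The main test pools the spread of each gene over the 4 groups. The sum of the pancreatic acinar markers was highest in 9-month control 2 (9146 CPM), followed by 9-month CdCl2 liver 1 (1789) and 3-month control 3 (247), and it lay between 8.40 and 33.5 CPM elsewhere. Kupffer cell markers summed to 164 to 397 CPM, skeletal muscle markers to 0 to 10.8 CPM and adipose markers to 0 to 5.84 CPM. In these bulk samples, fewer cells of a type and less RNA per cell cannot be told apart.

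The 8 genes differed widely in level. In TPM, the deposited values that correct for transcript length and sum to 1000000 per library, Slc2a2 was the highest on average in each of the 4 groups, at 227, 230, 168 and 118 TPM in 9-month CdCl2, 9-month control, 3-month CdCl2 and 3-month control livers. Slc2a5 was the lowest in each, at 2.26, 1.06, 1.15 and 0 TPM in the same order of groups. In 9-month CdCl2 livers the mean levels ran from Slc2a2 through Khk (178 TPM), Gys2 (103), Pygl (59.2), Pklr (36.0), Galk1 (29.6) and Mlxipl (15.4) to Slc2a5. The ranges of neighbours overlapped at each step of that order down to Galk1, whereas Galk1, Mlxipl and Slc2a5 did not overlap with their next neighbour. In 9-month controls the order was Slc2a2, Khk (224 TPM), Pygl (78.9), Gys2 (50.2), Pklr (39.0), Galk1 (23.2), Mlxipl (16.2) and Slc2a5, and the ranges of Slc2a2 and Khk alone overlapped. In 3-month CdCl2 livers Gys2 (96.4 TPM) stood above Khk (81.4), Pygl (31.0), Galk1 (24.2), Pklr (19.0) and Mlxipl (11.7), and neighbours overlapped except Khk with Pygl and Mlxipl with Slc2a5. In 3-month controls Khk (59.8 TPM), Gys2 (41.5) and Pygl (39.8) overlapped in that order and so did Pklr (6.30) and Galk1 (5.50), with Mlxipl (10.1) between these sets and apart from both. Glycogen synthase thus had a higher mean TPM than glycogen phosphorylase in both CdCl2 groups and in the 3-month controls, while the 9-month controls had the opposite order. The ranges of these 2 genes overlapped in 9-month CdCl2 livers and in 3-month controls. In 3-month control 2 the phosphorylase was slightly higher (50.1 against 49.9 TPM).

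**Figure D1:**
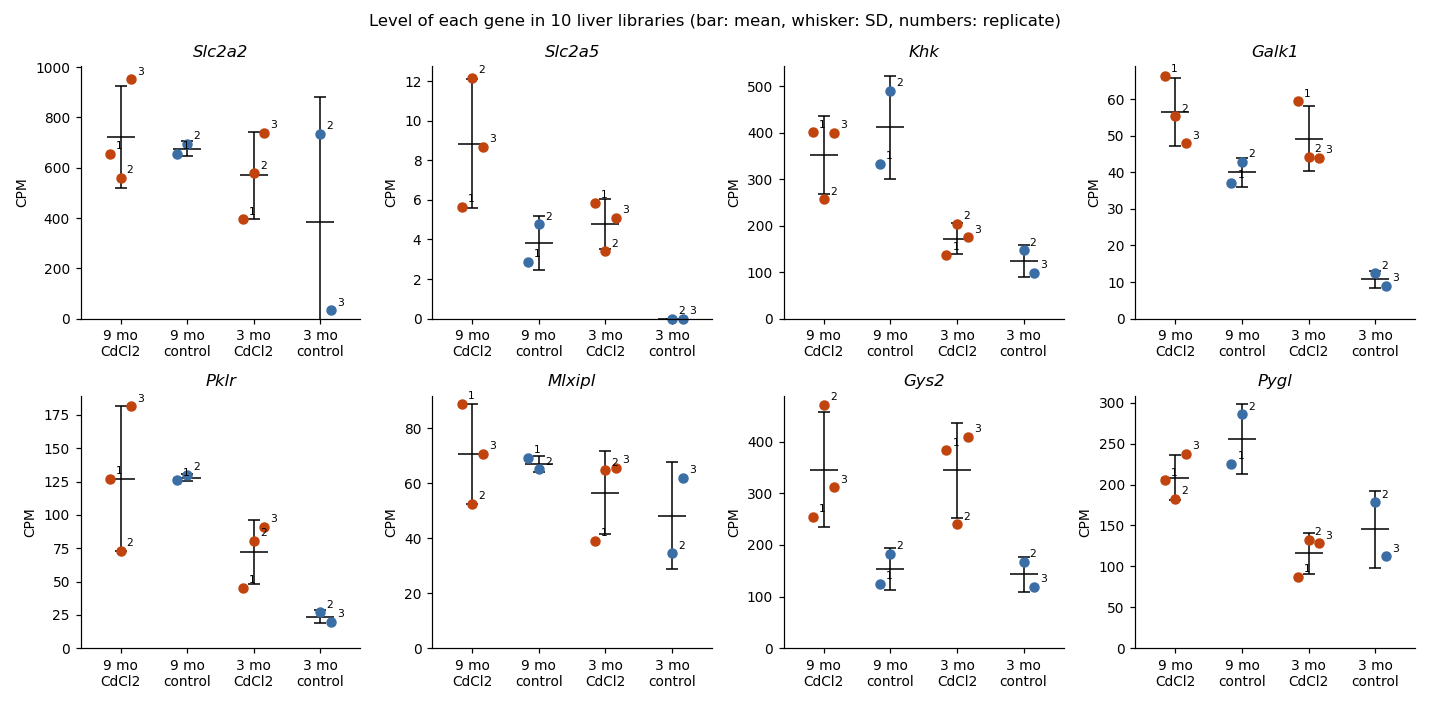
Level of each gene in CPM (vertical axis, linear, from 0) in 9-month CdCl2, 9-month control, 3-month CdCl2 and 3-month control livers. Each point is 1 library with its replicate number, the bar is the group mean and the whisker 1 SD. The lower whisker of Slc2a2 in 3-month controls ends at the axis. The 3-month controls lie lowest for Galk1, Pklr and Slc2a5, and CdCl2 livers lie above the controls of the same time for Gys2.

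Cadmium at 3 months moved 1 of the 8 genes past an adjusted p of 0.05, and that gene was Galk1, which was higher. Over all 14067 genes tested by edgeR's quasi-likelihood test, 0.0355% were called higher and 0.0498% were called in either direction. At an unadjusted p under 0.05, 4 of the 8 were higher (Slc2a5, Galk1, Pklr and Gys2) and 0 lower, where 7.35% of all genes were higher at that mark. The same 4 genes had CdCl2 and control libraries that did not overlap, as did 13.9% of all genes in the higher direction. The median log2 fold change was 0.92 over the 8 genes, also with Slc2a5 set against a floor for its counts of 0, and 0.01 over all genes. At 9 months 0 of the 8 passed by edgeR, DESeq2 or limma voom, and by edgeR 0.0% of all genes were called, while 1 of the 8 (Gys2) had an unadjusted p under 0.05 and was higher, as were 1.14% of all genes. The groups did not overlap for 3 of the 8 at 9 months (Slc2a5, Galk1 and Gys2, all higher), against 10.3% of all genes in that direction. These same 3 genes were above every control of the same time at both times, which held for 1.37% of all genes tested. When the effects at both times were averaged, Galk1 was again the 1 gene of the 8 past the threshold, with 0.0284% of all genes called higher and 0.064% in either direction. At an unadjusted p under 0.05, 4 of the 8 had a positive averaged effect (Slc2a5, Galk1, Pklr and Gys2), where 4.75% of all genes did. The difference between the effects at 9 and 3 months passed for 0 of the 8 by edgeR, as for 0.0% of all genes. At an unadjusted p under 0.05, 3 of the 8 (Slc2a5, Galk1 and Pklr) had a smaller effect at 9 months, where 4.81% of all genes did.

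**Figure D2:**
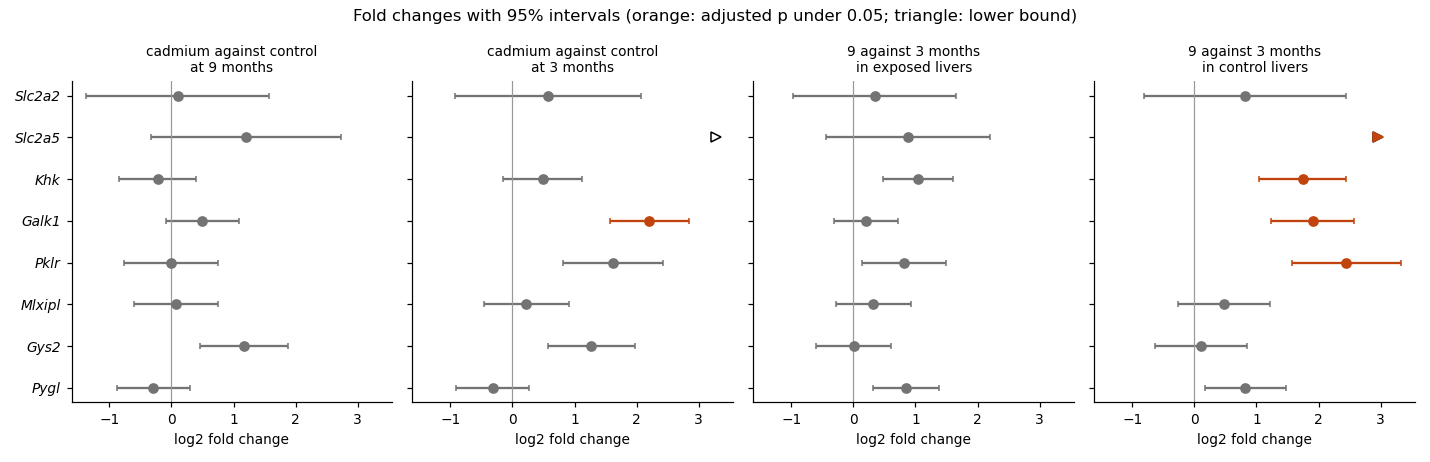
Log2 fold changes (horizontal axis) of the 8 genes, with approximate 95% intervals from the normal quantile. Panels are CdCl2 over control at 9 and at 3 months, and 9 over 3 months in exposed and in control livers. Orange marks an adjusted p under 0.05. Triangles, titled lower bound, mark the mean of Slc2a5 over a floor where the 3-month controls had 0 counts, with no error on that mean. Galk1 alone is orange in the 3-month panel and 4 genes are orange in the control-liver panel.

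Galk1 encodes galactokinase, which turns galactose into galactose 1-phosphate. Its single transcript in the table, NM_016905.2, lies on chromosome 11 from 116008357 to 116012719 in coordinates that look like mm10. Galk1 had 66.2, 55.3 and 48.0 CPM in CdCl2 livers at 9 months, against 37.2 and 42.8 CPM in controls. At 3 months it had 59.4, 44.2 and 44.0 CPM in CdCl2 livers, against 12.4 and 9.03 CPM in controls. Every CdCl2 liver was above every control of the same time, at both times, as for 1.37% of all genes tested. The 3-month controls were the lowest of all 10 libraries. The mean at 3 months was 49.2 ± 8.84 CPM in CdCl2 livers (SD, n = 3) and 10.7 ± 2.41 CPM in controls (SD, n = 2), a ratio of 4.58. The log2 fold change was 2.20 ± 0.33 (SE), with an adjusted p of 0.0294 by edgeR's quasi-likelihood test. At 9 months the means were 56.5 ± 9.18 CPM and 40.0 ± 4.01 CPM, with a log2 fold change of 0.50 ± 0.30 and an adjusted p of 1. The mean of both effects was 1.35 ± 0.22 on the log2 scale with an adjusted p of 0.045 by edgeR. The difference of the effects, 9 minus 3 months, was -1.70 ± 0.42 with an unadjusted p of 0.00135 and an adjusted p of 0.418 (edgeR). The size of the 3-month effect was between 1.98 and 2.45 when any 1 library was left out, while the call was lost by edgeR without 3-month CdCl2 liver 1 (adjusted p = 0.113), 2 (0.0957) or 3 (0.0768) and without 9-month CdCl2 liver 1 (0.0613) or 2 (0.0681). It was also lost with the replicate block (0.0787), summed transcripts (0.0887), the compared groups only (0.415) and without both libraries rich in pancreatic RNA (0.093). Over all alternatives its adjusted p ran from 2.41e-06 with DESeq2, which called 3.31% of all genes, to 0.455 with limma voom and library weights. The averaged effect kept an adjusted p under 0.05 in 4 of 18 alternatives. Of the leave-one-out fits only those without 3-month control 2 or 3 kept it, and these leave 1 control at 3 months.

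Khk encodes ketohexokinase, the first enzyme of fructose use. Its chosen transcript NM_001310524.1 lies on chromosome 5 from 30921559 to 30931248, and a second transcript had 98.0 to 100.5% of its count in every library. Khk had 402, 257 and 400 CPM in CdCl2 livers at 9 months, against 333 and 490 CPM in controls. The 3-month levels were 137, 205 and 175 CPM in CdCl2 livers, against 148 and 98.7 CPM in controls. Exposed and control libraries overlapped at both times. The 9-month libraries were above the 3-month libraries without overlap in exposed livers, as for 7.23% of all genes. The same held in controls, as for 26.1% of all genes. For CdCl2 the log2 fold change was -0.22 ± 0.32 at 9 months, with an adjusted p of 1, and 0.48 ± 0.32 at 3 months, with one of 0.517 (edgeR). The 95% intervals of these fold changes reached from -0.85 to 0.40 at 9 months and from -0.15 to 1.12 at 3 months, so a doubling was outside the first and inside the second. Khk over Galk1 in TPM sets the entry steps of the 2 sugars side by side as a description, with no test, and was chosen after the values were seen. The ratio was 5.75, 4.40 and 7.90 in CdCl2 livers at 9 months, against 8.50 and 10.8 in controls. At 3 months the ratio was 2.18, 4.39 and 3.77 in CdCl2 livers, against 11.2 and 10.4 in controls. The groups did not overlap at either time.

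The 2 sugar transporter genes differed in what could be read from them. Slc2a5 encodes GLUT5, a fructose transporter best known from the small intestine. Its chosen transcript NM_019741.3 lies on chromosome 4 from 150119344 to 150144168 and held 307 reads over all 10 libraries, so its values rest on few reads. Slc2a5 had 36, 77 and 42 reads in CdCl2 livers at 9 months, against 13 and 36 reads in controls. The 3-month counts were 39, 25 and 39 reads in CdCl2 livers, against 0 and 0 reads in controls. In CPM these were 5.65, 12.2 and 8.68 against 2.87 and 4.77 at 9 months, and 5.85, 3.41 and 5.10 against 0 and 0 at 3 months, with CdCl2 livers first. The groups did not overlap at either time. A count of 0 allows up to 3 counts, which is 0.632 CPM in 3-month control 2 and 0.352 CPM in 3-month control 3, for counting error only. The mean of the 3-month CdCl2 livers was 9.73 times the mean of these floors. This ratio carries no error of the CdCl2 mean, whose lowest library had 3.41 CPM. The adjusted p was 0.073 by edgeR, which misses the threshold. That p ran from 0.000881 to 0.873 over the alternatives. It was under 0.05 with DESeq2 (0.00154) and without a filter on low counts (0.000881). These fits called 3.31% and 2.39% of all genes, against 0.0498% in the main fit. With counts summed over transcripts it was 0.0441, where 0.0724% of all genes passed. That sum counts reads shared by the 3 Slc2a5 transcripts more than once, so it adds no reads of its own. The fits without 3-month control 2 or 3 also passed, with 1 control left at 3 months. At 9 months the log2 fold change was 1.20 ± 0.78 with an adjusted p of 1. Of 5 enterocyte markers listed, only 1, Fabp2, was in the table, and it was detected in every library. Fabp2 had 42.2 to 57.9 CPM in 9-month CdCl2 livers and 34.1 to 41.4 CPM in 9-month controls. At 3 months it had 18.8 to 90.9 CPM in CdCl2 livers and 7.62 to 20.03 CPM in controls. The part of enterocyte RNA in the Slc2a5 values was not tested.

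Slc2a2 encodes GLUT2, the glucose transporter of hepatocytes and also of pancreatic beta cells. Its single transcript in the table, NM_031197.2, lies on chromosome 3 from 28697903 to 28728361. Slc2a2 had 657, 559 and 952 CPM in CdCl2 livers at 9 months, against 655 and 696 CPM in controls. Levels at 3 months were 394, 578 and 738 CPM in CdCl2 livers, against 736 and 32.7 CPM in controls. Of the 10 libraries, 9 lay between 394 and 952 CPM and 3-month control 3 alone lay far lower, with 279 reads where the other libraries had 2630 to 5643. The log2 fold change for CdCl2 at 3 months was 0.57 ± 0.76 (adjusted p = 0.777, edgeR). It was 4.13 without 3-month control 2 and -0.37 without 3-month control 3, with 1 control left at 3 months in each fit. The 3-month comparison of Slc2a2 therefore took its direction from which control was kept. At 9 months the log2 fold change was 0.10 ± 0.75 (adjusted p = 1, edgeR). Islet markers (4 of 5 could be used) summed to 0 CPM in both 3-month controls, to 0 to 0.157 CPM in the CdCl2 livers of both times, and to 3.54 and 13.8 CPM in 9-month controls 1 and 2.

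**Figure D3:**
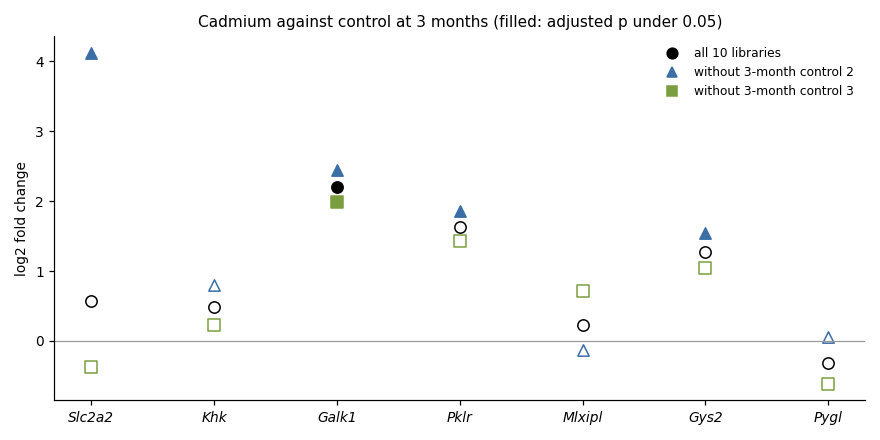
Log2 fold change for CdCl2 over control at 3 months (vertical axis) of 7 genes with all 10 libraries (circles), without 3-month control 2 (triangles) and without 3-month control 3 (squares); filled symbols have an adjusted p under 0.05. Galk1 is filled in each of these 3 fits, and Slc2a2 lies at 4.13 in one and at -0.37 in the other; Slc2a5 is left out because its fitted fold rests on counts of 0.

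Pklr encodes the pyruvate kinase of liver and red blood cells, which makes pyruvate in the last step of glycolysis. Its chosen transcript XM_006501135.3 lies on chromosome 3 from 89136129 to 89146600, starting upstream of the promoter window shown, and a second transcript had 98.2 to 100.0% of its count. Pklr had 127, 73.1 and 181 CPM in CdCl2 livers at 9 months, against 126 and 130 CPM in controls. At 3 months it had 45.1, 80.6 and 91.2 CPM in CdCl2 livers, against 27.0 and 20.1 CPM in controls. The groups were apart at 3 months and overlapped at 9 months, where the CdCl2 livers lay on both sides of the controls. The mean at 3 months was 72.3 ± 24.1 CPM in CdCl2 livers (SD, n = 3) and 23.5 ± 4.90 CPM in controls (SD, n = 2), 3.07 times as high. The log2 fold change was 1.62 ± 0.41 at 3 months with an adjusted p of 0.118, and -0.01 ± 0.38 at 9 months with an adjusted p of 1 (edgeR). Pklr passed at 3 months with DESeq2 (0.0113) and without a filter on low counts (0.000786). These fits called 3.31% and 2.39% of all genes, against 0.0498% in the main fit. It also passed without 3-month control 2, with 1 control left at 3 months. The difference of the effects, 9 minus 3 months, was -1.63 ± 0.55 with an adjusted p of 0.453 (edgeR). Erythroid markers, of which Hba-a2 was at 0 in all libraries, summed to 56.6 to 97.1 CPM in 9-month CdCl2 livers, 101.5 to 152.5 CPM in 9-month controls, 46.7 to 86.5 CPM in 3-month CdCl2 livers and 31.4 to 59.3 CPM in 3-month controls. Their part in the Pklr values was not tested.

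Mlxipl encodes ChREBP, for which Pklr is a textbook target. The chosen transcript NM_021455.4 lies on chromosome 5 from 135106891 to 135138382 and is 1 of 16 in the table. Mlxipl had 89.0, 52.6 and 70.7 CPM in CdCl2 livers at 9 months, against 69.2 and 65.1 CPM in controls. At 3 months the levels were 39.1, 64.8 and 65.7 CPM in CdCl2 livers, against 34.6 and 62.0 CPM in controls. The groups overlapped at both times. By edgeR the log2 fold change was 0.08 ± 0.35 at 9 months, with an adjusted p of 1, and 0.22 ± 0.35 at 3 months, with one of 0.816, and with 95% intervals from -0.60 to 0.75 and from -0.46 to 0.90. A second transcript, XR_377113.2, which the table ends upstream of the chosen one, had 76.4, 76.6 and 77.5% of the chosen count in CdCl2 livers at 9 months, against 82.4 and 88.0% in controls. At 3 months that share was 70.9, 71.6 and 55.2% in CdCl2 livers, against 32.9 and 68.6% in controls. The share was therefore lowest in 3-month control 2, and the level of Mlxipl depended on the transcript counted. Pklr over Mlxipl in TPM, a ratio of a target to its factor chosen after the values were seen, was 1.81, 1.76 and 3.25 in CdCl2 livers at 9 months, against 2.31 and 2.53 in controls. At 3 months it was 1.46, 1.58 and 1.76 in CdCl2 livers, against 0.99 and 0.41 in controls, without overlap. This separation rests on the chosen Mlxipl transcript. In 3-month control 2 XR_377113.2 had 54 reads and Pklr 128, and in 3-month CdCl2 liver 1 they had 185 and 301. With XR_377113.2 in the ratio the groups would overlap.

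Gys2 encodes the liver form of glycogen synthase, which lengthens the glycogen chain. Its chosen transcript NM_145572.2 lies on chromosome 6 from 142422613 to 142473109, and a second transcript had 94.2 to 98.9% of its count. Gys2 had 255, 471 and 312 CPM in CdCl2 livers at 9 months, against 125 and 183 CPM in controls. The levels at 3 months were 383, 240 and 410 CPM in CdCl2 livers, against 167 and 119 CPM in controls. The CdCl2 livers were above every control of the same time at both times, which held for 1.37% of all genes tested. The means were 346 ± 112 CPM in CdCl2 livers (SD, n = 3) and 154 ± 40.8 CPM in controls (SD, n = 2) at 9 months, 2.25 times as high, and 344 ± 91.3 CPM and 143 ± 34.4 CPM at 3 months, 2.41 times as high. The log2 fold change was 1.17 ± 0.36 at 9 months with an unadjusted p of 0.00587 and an adjusted p of 1, and 1.27 ± 0.36 at 3 months with an unadjusted p of 0.00345 and an adjusted p of 0.147 (edgeR). Neither passed the threshold. The effects at the 2 times differed by -0.10 ± 0.49 (9 minus 3 months), with a 95% interval from -1.06 to 0.85, and their mean was 1.22 ± 0.25 with an adjusted p of 0.155 (edgeR). The adjusted p of that mean ran from 0.000116 to 0.592 over the alternatives. It was under 0.05 with DESeq2 (0.000912) and without a filter on low counts (0.000116). For the mean effect these fits called 0.796% and 1.16% of all genes, against 0.064% in the main fit. The fits without 3-month control 2 or 3 also passed, with 1 control left at 3 months. The 3-month effect passed with DESeq2 (0.0226) and without a filter on low counts (0.0127), where 3.31% and 2.39% of all genes were called. It also passed without 3-month control 2, with 1 control left. Genes of the circadian clock, 16 of 16 in the table, summed to 947 to 1151 CPM in CdCl2 livers and 574 to 588 CPM in controls at 9 months, and to 764 to 1200 CPM and 775 to 921 CPM at 3 months. At 9 months Gys2 was higher in every CdCl2 liver than in the controls, as were 10.3% of all genes, and so was the clock sum. That sum weighs its most abundant genes most and does not show single clock genes. At 3 months the groups were apart for Gys2 and overlapped for the clock sum. The part of the clock genes in the Gys2 values was not tested.

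Pygl encodes liver glycogen phosphorylase, which releases glucose 1-phosphate from glycogen. Its single transcript in the table, NM_133198.2, lies on chromosome 12 from 70190815 to 70227683. Pygl had 205, 182 and 238 CPM in CdCl2 livers at 9 months, against 226 and 286 CPM in controls. In 3-month libraries they were 87.3, 133 and 128 CPM in CdCl2 livers, against 178 and 112 CPM in controls. Pygl was the 1 gene of the 8 with a negative fold change for CdCl2 at both times, and the groups overlapped at both. Its log2 fold change was -0.29 ± 0.30 at 9 months, with an adjusted p of 1, and -0.32 ± 0.30 at 3 months, with one of 0.661 (edgeR). Synthase over phosphorylase within a library, Gys2 over Pygl in TPM, sets the 2 opposing enzymes side by side and was chosen after the values were seen. The ratio was 1.32, 2.74 and 1.39 in CdCl2 livers at 9 months, against 0.589 and 0.679 in controls. At 3 months it was 4.66, 1.92 and 3.39 in CdCl2 livers, against 0.996 and 1.12 in controls. The mean ratio was 1.82 ± 0.80 in CdCl2 livers and 0.63 ± 0.06 in controls at 9 months, and 3.32 ± 1.37 in CdCl2 livers and 1.06 ± 0.09 in controls at 3 months (SD). The CdCl2 livers had the higher ratio at each time without overlap, and no test is given for it because it was picked on these values.

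**Figure D4:**
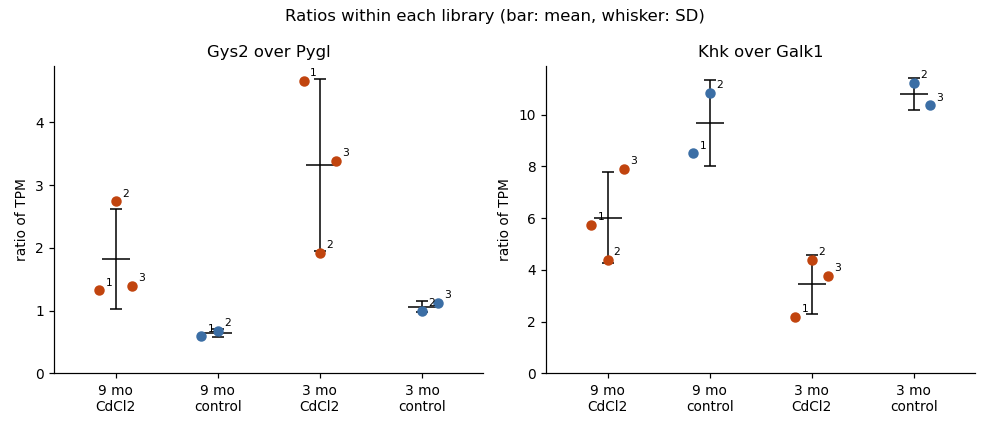
Ratio of TPM within each library (vertical axes, from 0) for Gys2 over Pygl and for Khk over Galk1, in 9-month CdCl2, 9-month control, 3-month CdCl2 and 3-month control livers; points are libraries with their replicate number, bars are means and whiskers 1 SD. Gys2 over Pygl is higher in CdCl2 livers at each time and Khk over Galk1 is lower, without overlap of the groups.

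In control livers 4 of the 8 genes were higher at 9 than at 3 months past an adjusted p of 0.05, namely Slc2a5, Khk, Galk1 and Pklr, where edgeR called 0.931% of all genes higher and 1.89% in either direction. At an unadjusted p under 0.05 these 4 and Pygl were higher, 5 of the 8, where 9.73% of all genes were. All 8 had a positive fold change, as did 52.1% of all genes. The median log2 fold change was 1.28 over the 8 genes and 0.06 over all genes. The 9-month controls lay above the 3-month controls without overlap for 6 of the 8, which held for 26.1% of all genes. Pklr averaged 128 ± 2.76 CPM at 9 months and 23.5 ± 4.90 CPM at 3 months (SD, n = 2 each), a log2 fold change of 2.45 ± 0.45 (adjusted p = 0.0307, edgeR). Khk averaged 412 ± 111 CPM at 9 months and 123.2 ± 34.5 CPM at 3 months, a log2 fold change of 1.74 ± 0.36 (adjusted p = 0.0359). Galk1 averaged 40.0 ± 4.01 CPM and 10.7 ± 2.41 CPM at these times, a log2 fold change of 1.90 ± 0.34 (adjusted p = 0.0307). For Slc2a5 the 9-month mean was 7.77 times the mean floor of the 3-month controls, with no error on the 9-month mean (adjusted p = 0.0312, edgeR). Pygl had a log2 fold change of 0.82 ± 0.33 (adjusted p = 0.189), Slc2a2 of 0.81 ± 0.83 (0.629), Mlxipl of 0.47 ± 0.38 (0.528) and Gys2 of 0.11 ± 0.38 (0.910). All 4 of these calls rest on the same pair of 3-month controls as the exposure comparison at 3 months, so the 2 comparisons share those samples. Without 1 exposed liver, the number of the 8 genes past the threshold went with the share of all genes called. It was 3 without 9-month CdCl2 liver 2 and 3 without 3-month CdCl2 liver 3, where 0.814% and 0.756% of all genes passed. It was 2 without 3-month CdCl2 liver 1 (0.247% of all genes) and 1 without 9-month CdCl2 liver 3 (0.143%). It was 0 without 9-month CdCl2 liver 1 (0.101%) or 3-month CdCl2 liver 2 (0.00725%). A fit that drops 1 of the controls has 1 control at that time, so its calls are not counted here. Over the 10 fits without 1 library, the log2 fold change ran from 1.48 to 2.07 for Khk. It ran from 1.69 to 2.15 for Galk1, from 2.25 to 2.68 for Pklr and from -0.12 to 4.37 for Slc2a2. All 4 calls were also lost, leaving 0 of the 8, with the replicate block, summed transcripts, voom weights, the compared groups only and without both libraries rich in pancreatic RNA (9-month control 2 and 9-month CdCl2 liver 1), and DESeq2 called the same 4 genes and 8.67% of all genes.

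In exposed livers 0 of the 8 genes passed between 9 and 3 months by edgeR, DESeq2 or limma voom, and edgeR called 0.0% of all genes. At an unadjusted p under 0.05, 3 of the 8 were higher at 9 months (Khk, Pygl and Pklr), where 2.50% of all genes were. All 8 had a positive fold change, as did 50.3% of all genes, and that of Gys2 was near 0 and changed sign in some alternatives. Khk averaged 353 ± 83.4 CPM at 9 months and 172 ± 34 CPM at 3 months (SD, n = 3 each), with a log2 fold change of 1.03 ± 0.29 (adjusted p = 0.960, edgeR). Pygl averaged 208 ± 27.8 CPM at 9 months and 116 ± 25.1 CPM at 3 months, with a log2 fold change of 0.84 ± 0.27 (adjusted p = 0.960). Khk and Pygl were the 2 of the 8 whose 9-month and 3-month exposed libraries did not overlap, which held for 7.23% of all genes in that direction. Pklr had a log2 fold change of 0.81 ± 0.35 (adjusted p = 0.980), and Galk1 one of 0.20 ± 0.26 (adjusted p = 1). Gys2 was at nearly equal means of 346 and 344 CPM at 9 and 3 months, with a log2 fold change of 0.01 and a 95% interval from -0.60 to 0.61.

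The wider pathway gave a background to these genes. Lists of glucose transport, glycolysis, fructose and polyol, galactose, glycogen, pentose phosphate, carbohydrate sensing and pyruvate entry genes held 109 symbols, all in the table, of which 101 were tested and 93 were not among the 8. Of these 93 genes, 0 passed for CdCl2 at 9 months by edgeR, with 1 higher and 2 lower at an unadjusted p under 0.05, where 1.14% of all genes were higher and 1.10% lower, and 0 by DESeq2. At 3 months 0 passed by edgeR, with 15 higher and 8 lower at an unadjusted p under 0.05, where 7.35% of all genes were higher and 7.17% lower. By DESeq2 8 of the 93 passed at 3 months, as did 3.31% of all 14067 genes. The median log2 fold change of the 93 genes was -0.09 at 9 months and 0.10 at 3 months, against 0.01 over all genes at either time. By list, the median at 3 months was 0.57 over 9 glucose transport genes, 0.13 over 26 glycolysis genes, 0.47 over 8 fructose and polyol genes, 0.47 over 9 galactose genes, 0.09 over 22 glycogen genes, 0.45 over 9 pentose phosphate genes, 0.05 over 10 carbohydrate sensing genes and -0.48 over 12 pyruvate entry genes, members of the 8 included. At 9 months the 8 list medians lay between -0.17, for galactose, and 0.06, for glucose transport. Ugp2, which makes the UDP-glucose that both Gys2 and the galactose pathway use, had 701, 718 and 818 CPM in CdCl2 livers at 9 months, against 440.1 and 439.5 CPM in controls. The log2 fold change of Ugp2 was 0.76 ± 0.27 at 9 months, with an adjusted p of 1, and 0.47 ± 0.27 at 3 months, with one of 0.434 (edgeR).

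Between 9 and 3 months in control livers, 4 of the 93 genes passed by edgeR, all higher at 9 months, where 0.931% of all genes were called higher and 1.89% in either direction. With the replicate block 1 of the 93 passed, and 0 did with summed transcripts, voom weights, the compared groups only or without both libraries rich in pancreatic RNA, settings under which 0 or 1 of all genes passed. Ppp1r3b, which targets the phosphatase that activates glycogen synthase, averaged 341 CPM at 9 months and 98.7 CPM at 3 months (log2 fold change 1.79 ± 0.41, adjusted p = 0.0477, edgeR). In the pentose phosphate pathway, Pgls rose by 2.67 ± 0.58 and Taldo1 by 1.35 ± 0.29 on the log2 scale, each with an adjusted p of 0.0421 by edgeR. Without 3-month control 2, 12 of the 93 genes passed, as did 6.36% of all genes tested in that fit, and without 3-month control 3, 25 did, as did 15.3% of all genes. Without any 1 of the other libraries 1 of the 93 passed, while Ppp1r3b, Pgls and Taldo1 did not. In exposed livers 0 of the 93 passed between 9 and 3 months by edgeR, with 4 higher and 1 lower at an unadjusted p under 0.05, where 2.50% of all genes were higher and 2.46% lower, and 0 by DESeq2.

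The genes with the most similar pattern over the 10 libraries were sought among 7545 genes with a mean of at least 10 CPM, by Pearson's r of log2(CPM + 1), as a description. The libraries share depth and composition, and the 3-month controls weigh on each such r. Pklr was followed closely by Nit2 (r = 0.974), and Khk by Prodh2 (0.970) and Gltpd2 (0.961). Slc2a2 was nearest to Inhbc (0.975) and C1rl (0.973), Slc2a5 to Akr1c12 (0.974) and Acy1 (0.972), and Galk1 to Ftcd (0.961) and Madd (0.955). Pygl was nearest to Aldh1a7 (0.950) and Cnp (0.928), Mlxipl to Cndp2 (0.941) and Ubxn8 (0.929), and Gys2 to Rev1 (0.921) and Bach1 (0.901). None of the 8 genes was among the 2 nearest genes of another of the 8.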

How the data were processed

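Input RNA of 10 mouse liver libraries was analysed, and 10 other libraries of the series were not analysed here. The deposited table gives read counts per RefSeq transcript (79884 transcripts of 21768 genes), which the authors left unnormalised, per the file headers and the values. The TPM in the same deposited table, per the file headers, equal each transcript's count over its length scaled to 1000000 per library. The submitters' processing notes name bcl2fastq, TopHat2 2.0.13, MACS2 2.1.0.20151222, and as builds mm10, hg19 and rn6 with no role for any. Which program counted the reads, whether it used strand and which annotation release it read is not given, so overlapping genes could not be told apart by strand. A further 12 columns, of 6 libraries, match no sample and were not used.

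Each gene kept its transcript with the highest summed count, since isoforms share reads. Genes passing filterByExpr (14067, all 8 members among them) were tested with edgeR 4.0.16 (R 4.3.3, TMM, quasi-likelihood test, 4 groups in 1 fit) and p-values were adjusted by Benjamini-Hochberg over all of them, two-sided, with a threshold of 0.05. CPM are counts over TMM-scaled library sizes. Residual and prior degrees of freedom were 6 and 7.59, which limits precision. The fit was tested on simulated data. Alternatives were DESeq2 1.42.0, its size factors, no or a stricter filter (5 CPM in 2 libraries), the compared groups only, a replicate block, summed transcripts, limma 3.58.1 voom with library weights, each library left out, and both libraries rich in pancreatic RNA left out. All 8 members were named. Other pathway genes were named when past the threshold (up to 4 a list), and otherwise from the 2 with the highest mean level of a list, of which Ugp2 is given. The 2 genes of most similar pattern were named per member. A pathway gene past the threshold and a gene of similar pattern are not reported here. The members, lists and tests were chosen with earlier results of these data known. Intervals and floors cover counting error or the spread of libraries only.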

Additional observations from a re-analysis of the deposited data

How the results depend on the processing

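Over 48 gene comparisons and 896 alternative values, 766 kept direction and side of the threshold, 67 lost a call, 24 gained one and 39 changed sign, of which 27 came from fits without 1 library and all 39 from 16 comparisons. The cause of these changes was not tested, apart from the fewer samples that leave-one-out fits hold. The 3-month comparisons rest on 2 controls that differ from each other, and Slc2a5 on few reads.

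For CdCl2 at 3 months, 1 of the 8 genes passed, against 4 with DESeq2, 4 without a filter, 0 with the replicate block, 0 with voom weights, 0 without both libraries rich in pancreatic RNA, 0 with the compared groups only, and 0 to 5 without 1 library. Among all genes 7 passed, against 465 with DESeq2, 502 without a filter, 3 with the replicate block, 11 with summed transcripts, 2 with voom weights, 4 without the pancreatic pair, 0 with the compared groups only and 3 to 1247 without 1 library. For CdCl2 at 9 months 0 of the 8 passed in every fit run, and among all genes 0 passed, against 7 with DESeq2, 76 without a filter, 3 with voom weights, 1 with the compared groups only and 0 to 1 without 1 library. For the mean of both effects 1 of the 8 passed, against 3 with DESeq2, 3 without a filter, and 0 with DESeq2 size factors, the filter at 5 CPM, the replicate block, summed transcripts, voom weights or without the pancreatic pair, and 0 to 4 without 1 library. Among all genes 9 passed, against 112, 243, 4, 3 and 3 with DESeq2, without a filter, with the filter at 5 CPM, with summed transcripts and without the pancreatic pair, and 3 to 391 without 1 library. For the difference of the effects 0 of the 8 passed and 0 to 2 without 1 library, and among all genes 0, against 39 with DESeq2, 208 without a filter and 0 to 587 without 1 library. Between 9 and 3 months in exposed livers 0 of the 8 passed in every fit run, and among all genes 0, against 11 with DESeq2, 96 without a filter, 3 with voom weights, 4 with the compared groups only and 0 to 11 without 1 library. In control livers 4 of the 8 passed, against 0 with the replicate block, summed transcripts, voom weights, the compared groups only or without the pancreatic pair, and 0 to 5 without 1 library. Among all genes 266 passed, against 1220 with DESeq2, 1073 without a filter, 435 with the filter at 5 CPM, 1 with the replicate block, 0 with summed transcripts, 0 with voom weights, 1 without the pancreatic pair, 0 with the compared groups only and 1 to 2339 without 1 library.

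Sign changes on the log2 scale outside the leave-one-out fits were all in values near 0. For CdCl2 at 9 months Pklr (-0.01) was 0.009 with summed transcripts and 0.003 without the pancreatic pair, and Mlxipl (0.08) was -0.038 with the replicate block, -0.024 with summed transcripts and -0.178 without the pancreatic pair. In the difference of the effects Gys2 (-0.10) was 0.338 without the pancreatic pair, and Pygl (0.03) was -0.008 without a filter, -0.067 with the replicate block and -0.037 with voom weights. Between times Gys2 was -0.054 with the replicate block and -0.012 with summed transcripts in exposed livers, and -0.145 without the pancreatic pair in controls. Without 1 library, the range for CdCl2 at 3 months was -0.366 to 4.127 for Slc2a2, -0.129 to 0.713 for Mlxipl and -0.614 to 0.054 for Pygl. At 9 months it was -0.464 to 0.070 for Khk, -0.139 to 0.249 for Mlxipl, -0.363 to 0.268 for Pklr and -0.163 to 0.251 for Slc2a2. For the mean effect it was -0.135 to 2.112 for Slc2a2 and -0.027 to 0.394 for Mlxipl, and for the difference -4.030 to 0.462 for Slc2a2, -0.638 to 0.204 for Mlxipl, -0.391 to 0.160 for Gys2 and -0.350 to 0.318 for Pygl. For 9 against 3 months it was -0.281 to 0.176 for Gys2 in exposed livers, and -0.118 to 4.373 for Slc2a2 and -0.145 to 0.385 for Gys2 in controls.

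Over 12 pairs of libraries with the same replicate number in different groups, the deviations from the group means correlated between -0.147 and 0.0578. Within such small groups the deviations from a mean depend on each other, so these values cannot decide whether the replicate numbers pair the libraries.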
